A study of Mus musculus with 13 samples.

Results

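The mitochondrial carrier genes of the Slc25 family were compared between types of fully grown oocyte, before and after meiotic maturation. Members were all genes whose symbol in the count tables was Slc25a followed by a number. This gave 47 of the 18939 genes. The rule reads names and no measured value.

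Slc25 proteins sit mostly in the inner mitochondrial membrane, where each moves a particular group of metabolites between cytosol and matrix. The best known exchange ADP for ATP, bring in phosphate, or carry citrate, malate, amino acids, acylcarnitine, nucleotides and cofactors. They are encoded in the nucleus, made in the cytosol and inserted by the translocases of the outer and inner membranes. A fully grown oocyte holds a very large stock of mitochondria and lives through maturation on the mRNA it has stored.

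Each library was made from a single mouse oocyte. Germinal vesicle (GV) oocytes came from C57BL/6 females 3 to 4 weeks old, 48 h after PMSG, and all 4 groups received FBL-GFP mRNA by injection and Cilostamide, an inhibitor of meiotic resumption, for 6 h. FBL is fibrillarin, a nucleolar protein. Its pattern separated NSN oocytes, whose nucleolus is not surrounded by condensed chromatin, from SN oocytes, whose nucleolus is. NSN oocytes still transcribe, whereas SN oocytes are silent in transcription. MII oocytes were matured in culture after this sorting, so SN-MII and NSN-MII name the type of the GV oocyte from which an egg was grown. The study found a lower rate of first polar body extrusion in NSN than in SN oocytes. NSN-MII oocytes are therefore only the part of the NSN oocytes that matured. There were 3 SN GV, 3 NSN GV, 4 SN-MII and 3 NSN-MII libraries. No uninjected oocyte was analysed here, and the labels tie no oocyte to a particular female, so p-values measure the spread between these single cells.

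Library totals lay between 7140416 and 8846287 counts, and 11603 to 13350 genes had a count. The 10 most abundant genes took 5.47% to 6.60% of the counts in GV libraries and 8.92% to 12.1% in MII libraries, and NSN-MII replicate 3 had the largest share and the fewest genes. The summed level of 10 oocyte markers was 16373 to 28796 CPM (counts scaled to a common library size). The summed level of 14 cumulus and granulosa markers was 61.6 to 92.5 CPM at GV and 101 to 187 CPM at MII, most of it Cyp19a1. Amh, Amhr2, Foxl2, Fst and Ptx3 among them had at most 3 counts in any library. The part of this marker signal in the stage differences was not tested.

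Slc25 transcripts together took 0.130% to 0.176% of the counts in GV libraries and 0.131% to 0.149% in MII libraries. Of the 47 genes, 30 had a count in all 13 libraries, and 34 passed the filter on low counts when all libraries were fitted together. The libraries were not strand-specific, and exons of other genes overlap 12 members on the other strand. Among these are Slc25a10, Slc25a11, Slc25a21, Slc25a23, Slc25a25, Slc25a26, Slc25a33, Slc25a35 and Slc25a46. On the scale of FPKM (fragments scaled by transcript length and library size), which allows levels of different genes to be compared, the family summed to 753 ± 70.0 (SD, n = 6) at GV and 716 ± 35.7 (n = 7) at MII. The totals of the libraries overlapped between stages, with 663 to 847 at GV and 658 to 778 at MII, and the levels of single members are shown in the heat map.

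**Figure D1:**
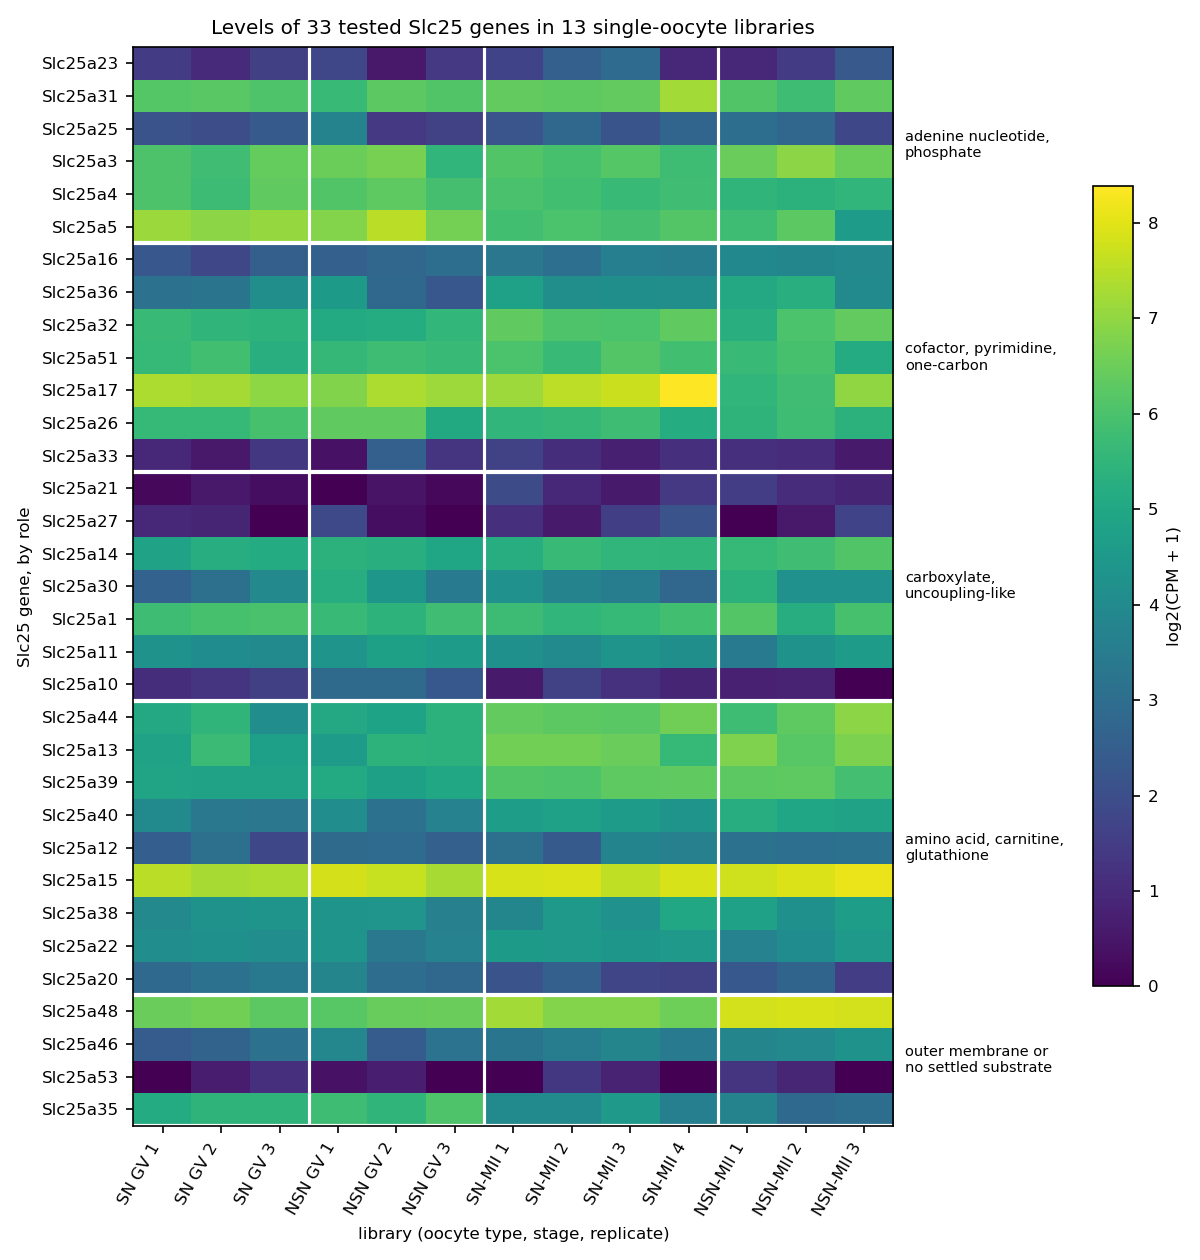
Heat map of log2(CPM + 1) for 33 of the Slc25 genes tested between stages (rows, grouped by role and ordered within a role by the MII over GV difference) in the 13 libraries (columns, grouped as SN GV, NSN GV, SN-MII and NSN-MII). Slc25a15 is bright in every library, Slc25a35 is darker in all 7 MII libraries than in the 6 GV libraries, and Slc25a48 is brightest in the 3 NSN-MII libraries.

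Levels were uneven within the family. At GV the 6 most abundant members held 51.8% to 58.3% of the family's FPKM, and 18 members had a mean of at most 1 FPKM. Slc25a5, the main ADP/ATP carrier of dividing cells, had 115 ± 22.2 FPKM (SD, n = 6), and Slc25a17, a peroxisomal carrier of coenzyme A, FAD and NAD, had 107 ± 10.4 FPKM. These did not differ beyond their spread, since Slc25a5 was the higher of them in 3 of 6 libraries. Both stood clear of the next member, Slc25a15, the ornithine carrier of the urea cycle, with 51.9 ± 11.5 FPKM. The phosphate carrier Slc25a3 (49.9 ± 14.7 FPKM) and the citrate carrier Slc25a1 (46.1 ± 6.62 FPKM) were also among these 6, and their ranges overlapped.

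At MII the order had shifted. Slc25a17 had 103 ± 61.4 FPKM (SD, n = 7), with values spread more widely than at GV. It had 143 ± 48.3 FPKM in SN-MII (n = 4) and 49.4 ± 19.4 FPKM in NSN-MII oocytes (n = 3), where Slc25a1, Slc25a15, Slc25a3 and Slc25a48 had higher means. Over both types, Slc25a1 followed with 63.5 ± 15.0 FPKM, Slc25a15 with 60.1 ± 5.95 FPKM, Slc25a3 with 48.4 ± 15.1 FPKM, Slc25a5 with 46.2 ± 14.6 FPKM and Slc25a48 with 43.2 ± 17.7 FPKM. No pair of neighbours in this order was separated beyond the range of its libraries.

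The comparison of MII with GV oocytes asks which stored transcripts are lower or higher after maturation. Between stages 12 of the 34 Slc25 genes tested were higher at MII and 6 were lower at an adjusted p under 0.05 (edgeR's quasi-likelihood test, Benjamini and Hochberg's adjustment over all genes), and 16 did not pass. That is 35.3% higher and 17.6% lower, beside 31.7% higher and 36.9% lower among all 11375 genes tested. The median log2 fold change (MII over GV) was 0.35 over these Slc25 genes and -0.10 over all genes, and the median size of the change without its sign was 0.65 against 1.14. The split depends on the scaling. Scaled by library totals alone, 7 Slc25 genes were higher and 9 lower, and the median over all genes moved to -0.39 and that of the Slc25 genes to 0.03. On log2(FPKM + 1) with limma, 9 were higher and 7 lower. The shares of all genes above belong to the first of these fits. None is given for the other scalings, so their counts are not read as a trait of the family.

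In these libraries cDNA was primed from poly(A) tails, and many stored mRNAs of oocytes lose or gain tail during maturation, so an amount of mRNA and the length of its tail cannot be told apart here. Of the 18 called genes, 12 kept their call and sign in all other settings and left-out fits that could test them. Among these were the risers Slc25a48, Slc25a40, Slc25a16, Slc25a39, Slc25a13, Slc25a44 and Slc25a21 and the fallers Slc25a35, Slc25a10, Slc25a20 and Slc25a5. Slc25a21 could be tested in only 6 of the 8 other settings and 11 of the 13 left-out fits. Within GV libraries it did not pass the filter on low counts, so it entered the stage test through its MII counts. Slc25a10 did not pass this filter within MII libraries and entered through its GV counts. The other 6, Slc25a4, Slc25a14, Slc25a15, Slc25a32, Slc25a36 and Slc25a46, lost the call under at least 1 setting or without 1 library.

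**Figure D2:**
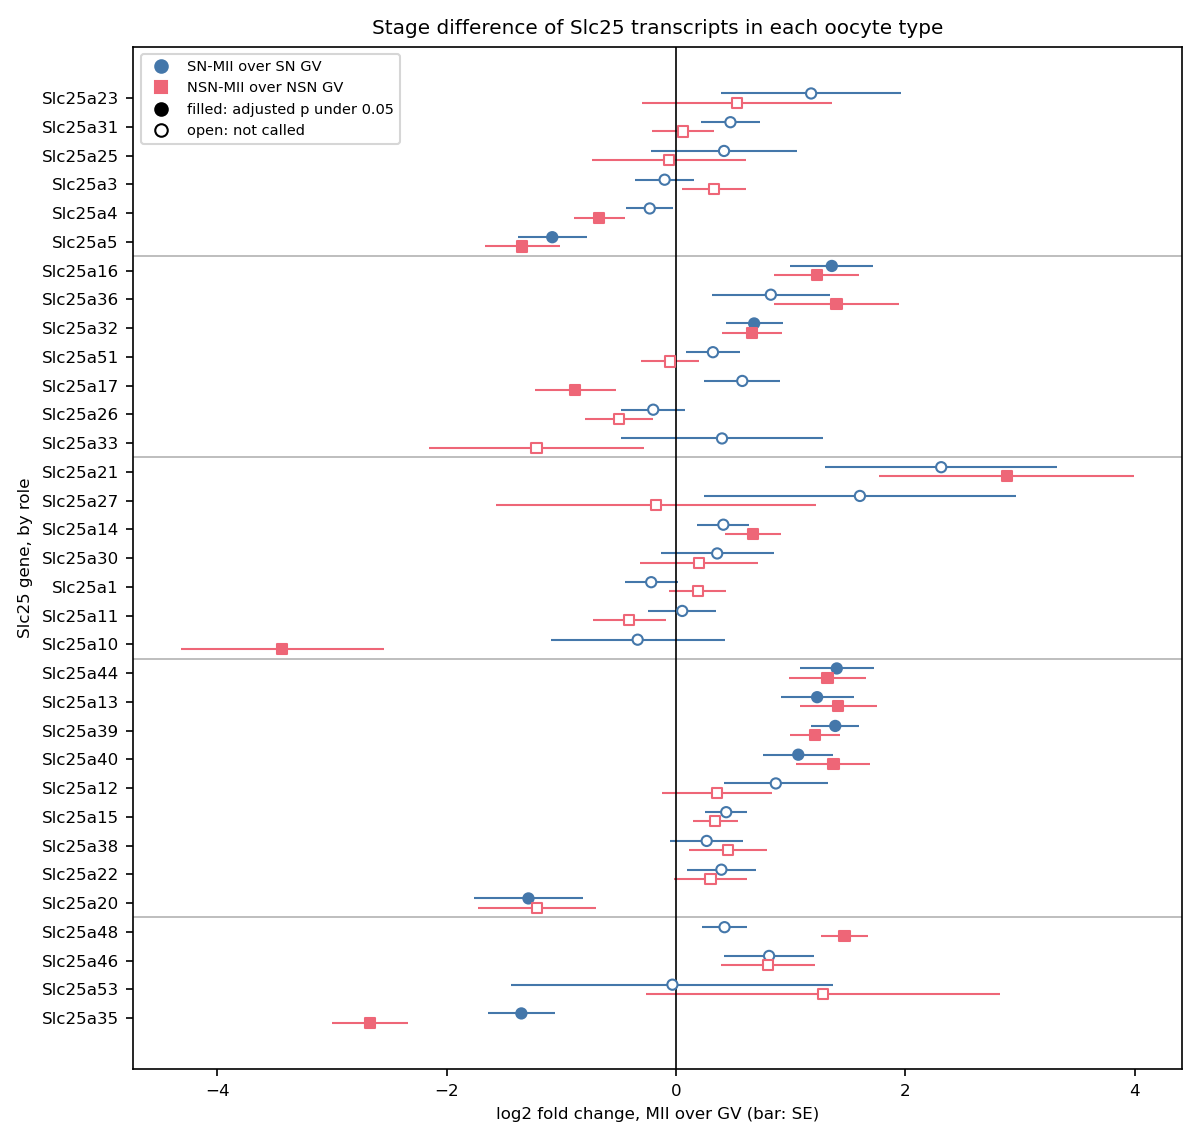
Log2 fold change of MII over GV (x axis, bars are SE) for 33 of the tested Slc25 genes (rows, by role), with circles for SN oocytes (4 SN-MII against 3 SN GV) and squares for NSN oocytes (3 NSN-MII against 3 NSN GV), filled where the adjusted p was under 0.05. Slc25a35 lies far to the left in both types, Slc25a39, Slc25a44, Slc25a13 and Slc25a40 to the right in both, and Slc25a10, Slc25a17 and Slc25a48 have the circle and the square apart.

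Among the carriers of adenine nucleotides and phosphate, 8 members, 6 were tested between stages. None of them rose and 2 fell, beside 31.7% higher and 36.9% lower of all genes. Slc25a5 (ENSMUSG00000016319.3, chrX:36795651-36798807, plus strand) ranged from 98.3 to 180.7 CPM at GV, with a median of 128 CPM in 6 libraries. At MII it ranged from 23.8 to 76.4 CPM, with a median of 59.3 CPM in 7 libraries. The stages did not overlap, and the lowest value was that of NSN-MII replicate 3. Slc25a5 fell by 1.21 ± 0.22 (SE) on the log2 scale, 2.31-fold, with an adjusted p of 0.000129.

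Slc25a4, the ADP/ATP carrier that predominates in heart and muscle, fell by 0.45 ± 0.15 with an adjusted p of 0.0143. Its GV libraries (52.4 to 80.6 CPM) and MII libraries (41.1 to 61.7 CPM) overlapped, and without SN GV replicate 3 the adjusted p was 0.0529. Slc25a31, an ADP/ATP carrier found mainly in germ cells, had 48.8 to 77.2 CPM at GV and 54.3 to 149.0 CPM at MII and was not called (log2 fold change 0.27 ± 0.19). Slc25a3, the phosphate carrier, had a median of 74.3 CPM at GV and of 71.5 CPM at MII and was not called either (0.12 ± 0.19). The calcium-dependent ATP-Mg/phosphate carriers were low. Slc25a23 had at most 6.57 CPM and Slc25a25 at most 12.5 CPM, both not called, and their paralogs Slc25a24 and Slc25a41 had at most 10 counts and 1 count in a library and were not tested.

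The ADP/ATP carriers made up a different mix at MII. Of the summed FPKM of Slc25a4, Slc25a5 and Slc25a31, Slc25a5 held 61.1% ± 3.46 (SD, n = 6) at GV and 41.3% ± 9.61 (n = 7) at MII. Slc25a31 held 17.3% ± 2.57 at GV and 33.1% ± 7.98 at MII. The share of Slc25a4 was 21.6% ± 2.60 at GV and 25.7% ± 3.98 at MII. The ratio of Slc25a31 to Slc25a5 was 0.231 to 0.372 in the GV libraries and 0.385 to 1.81 in the MII libraries, without overlap. This ratio is taken within a library and does not depend on the scaling between libraries. Its highest and lowest MII values both came from NSN-MII oocytes, so the range among 3 eggs of 1 type spanned the whole stage. The genes are close paralogs, and reads shared between them were divided by the authors' quantification.

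**Figure D3:**
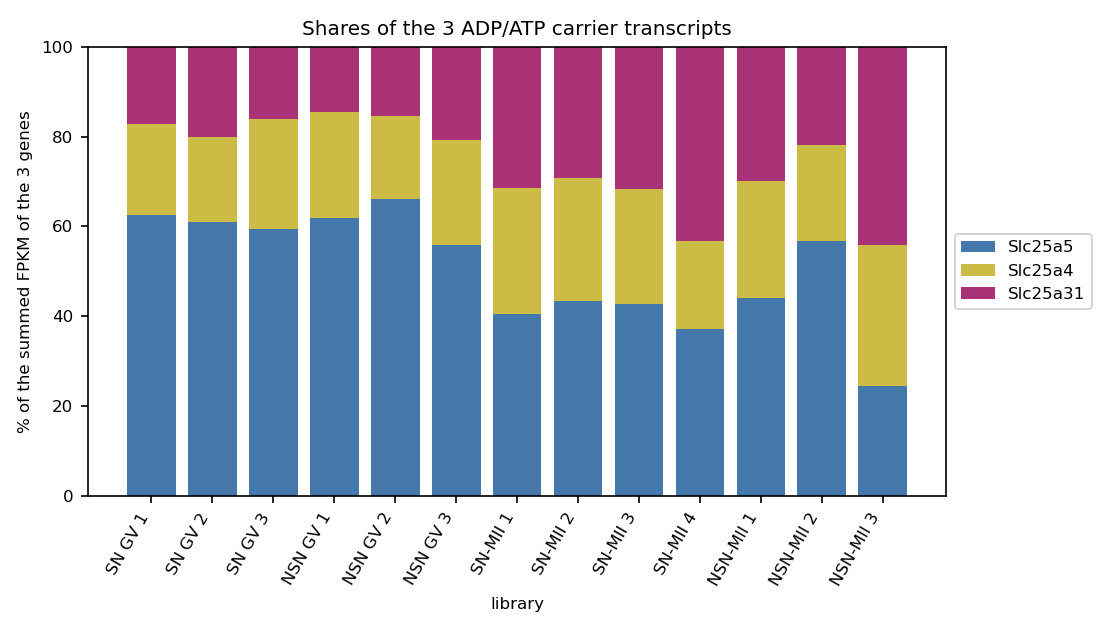
Stacked bars of the percentage of the summed FPKM of Slc25a5, Slc25a4 and Slc25a31 taken by each gene (y axis, 0 to 100%) in each of the 13 libraries (x axis). Slc25a5 takes 55.8% to 66.2% in the 6 GV libraries and 24.4% to 56.7% in the 7 MII libraries.

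Among the carriers of cofactors, pyrimidine nucleotides, folate and S-adenosylmethionine, 9 members, 8 were tested. Of these 3 rose and 1 fell, beside 31.7% higher and 36.9% lower of all genes. Slc25a16, a carrier linked to coenzyme A, had 2.48 to 7.08 CPM at GV and 7.32 to 14.3 CPM at MII, without overlap, and rose by 1.29 ± 0.26 on the log2 scale (adjusted p 0.000293). Slc25a32, the folate and FAD carrier, rose by 0.67 ± 0.18 (adjusted p 0.00353), and its stages overlapped. The pyrimidine nucleotide carrier Slc25a36 rose by 1.11 ± 0.38 (adjusted p 0.0151), from a median of 7.96 to one of 17.1 CPM. Its GV libraries (3.79 to 22.7 CPM) and MII libraries (15.2 to 38.1 CPM) overlapped. Scaled by library totals, neither Slc25a32 (adjusted p 0.0531) nor Slc25a36 (0.118) passed. Its paralog Slc25a33 was low, at most 4.99 CPM, and not called. The S-adenosylmethionine carrier Slc25a26 (-0.35 ± 0.20) and the NAD carrier Slc25a51 (0.14 ± 0.17) were not called.

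The carriers of carboxylates and the members close to uncoupling proteins, 7 members, were all tested. Of these 2 rose and 1 fell, beside 31.7% higher and 36.9% lower of all genes. Slc25a10, the dicarboxylate carrier that exchanges malate or succinate for phosphate, fell by 1.88 ± 0.57 on the log2 scale (adjusted p 0.0078), although GV and MII libraries overlapped. It entered this test through its GV counts, with at most 61 counts in a GV library and 17 in an MII library. Slc25a21, the oxodicarboxylate carrier of lysine and tryptophan breakdown, rose by 2.60 ± 0.75 (adjusted p 0.00571), and by 3.22 without NSN GV replicate 2. This is a change at very low level, from at most 4 counts in a GV library to at most 21 counts in an MII library, and exons of Pax9 overlap it on the other strand. Slc25a14 rose by 0.54 ± 0.17 (adjusted p 0.00837) and missed the threshold with library totals (adjusted p 0.238) and with limma on log2(FPKM + 1) (0.0868). Its stages overlapped.

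Slc25a1, which exports citrate, had 41.6 to 61.7 CPM at GV and 36.5 to 68.9 CPM at MII and was not called on counts (-0.01 ± 0.17). With limma on log2(FPKM + 1) it was higher at MII by 0.43 with an adjusted p of 0.0365. The oxoglutarate carrier Slc25a11 was not called on counts (-0.18 ± 0.22) and was called lower with library totals (adjusted p 0.0408) and on FPKM (0.0222).

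The carriers of amino acids, acylcarnitine and glutathione, 12 members, had 9 tested, of which 5 rose and 1 fell, beside the 31.7% higher and 36.9% lower of all genes. Slc25a39 (ENSMUSG00000018677.9, chr11:102402985-102407946, minus strand), which carries glutathione into mitochondria, had 26.2 to 33.6 CPM at GV with a median of 28.2 CPM and 57.7 to 79.3 CPM at MII with a median of 75.8 CPM. Libraries of a stage lay close together and the stages did not overlap. It rose by 1.30 ± 0.15 (adjusted p 1.07e-06), 2.46-fold. Its paralog Slc25a40 had 7.86 to 16.2 CPM at GV and 19.1 to 36.5 CPM at MII and rose by 1.22 ± 0.22 (adjusted p 0.000125), so both glutathione carrier genes were higher at MII. Per length, Slc25a39 remained the more abundant, with 3.27 to 5.59 times the FPKM of Slc25a40 at GV and 3.01 to 6.90 times at MII.

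Slc25a44, a carrier of branched-chain amino acids, had 16.4 to 44.1 CPM at GV and 53.9 to 120.2 CPM at MII. It rose by 1.36 ± 0.23 (adjusted p 6.63e-05), without overlap. Slc25a13, the aspartate/glutamate carrier of the malate-aspartate shuttle known as citrin, rose by 1.32 ± 0.23 (adjusted p 8.41e-05) from a median of 34.2 to one of 95.9 CPM. SN-MII replicate 4, at 48.5 CPM, was its only MII library within the GV range. Its paralog Slc25a12 was lower in level, at most 12.7 CPM, and not called (0.61 ± 0.33). Slc25a15, at 156.3 to 227.7 CPM at GV and 192.6 to 281.7 CPM at MII, rose by 0.39 ± 0.13 (adjusted p 0.017), and with library totals this was 0.08 (adjusted p 0.62). Neither the glutamate carrier Slc25a22 (0.35 ± 0.22) nor the glycine carrier Slc25a38 (0.36 ± 0.23) was called.

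The faller of this group was Slc25a20, the carnitine/acylcarnitine carrier needed for the burning of long-chain fatty acids in the matrix. It had 6.19 to 13.02 CPM at GV with a median of 7.33 CPM and 1.86 to 5.44 CPM at MII with a median of 3.45 CPM. The stages did not overlap, and it fell by 1.25 ± 0.35 (adjusted p 0.00473).

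Of the 9 members with an outer membrane location or without a settled substrate in the list used here, 4 were tested. Among them 2 rose and 1 fell, beside 31.7% higher and 36.9% lower of all genes. Slc25a35 fell by 2.01 ± 0.22 (adjusted p 5.17e-07), 4.03-fold, from 34.5 to 66.2 CPM at GV to 6.31 to 21.8 CPM at MII, without overlap. Exons of Rangrf overlap it on the other strand. Slc25a46, an outer membrane protein of mitochondrial fission and fusion, rose by 0.81 ± 0.28 (adjusted p 0.019), and its stages overlapped. The call was not kept without SN GV replicate 1 (adjusted p 0.0516) or NSN-MII replicate 3 (0.0569) or with library totals (0.176). Slc25a48, linked to choline uptake by mitochondria, rose by 0.95 ± 0.14 (adjusted p 1.63e-05). It had 73.3 to 95.6 CPM at GV and 92.3 to 234.2 CPM at MII, which overlap. Its log2 fold change was 1.47 in NSN oocytes and 0.42 in SN oocytes, where it was not called.

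The 3′ ends of these transcripts were examined because cDNA synthesis started there and because short U-rich elements near the polyadenylation signal are known to govern tail length in maturing oocytes. The stretches shown end with the polyadenylation hexamer and belong to 2 members that rose and 2 that fell. The risers were picked because, of 20 tested members with such a stretch, only these 2 held the element in it. They are written 5′ to 3′ on the strand of the transcript from mm10 with GENCODE M21 annotation, with capitals for AATAAA and for the element TTTTAT.
Slc25a48 (chr13:56474185-56474214, plus strand, 3′ UTR, rose): acatgacTTTTATgtggaaatcatAATAAA
Slc25a32 (chr15:39091246-39091275, minus strand, 3′ UTR, rose): tgtggagtTTTTATttaagtgaaaAATAAA
Slc25a10 (chr11:120499122-120499151, plus strand, 3′ UTR, fell): tgcctacacctctcttcaggatctAATAAA
Slc25a20 (chr9:108684596-108684625, plus strand, 3′ UTR, fell): gagcactcagttttaacaggaaacAATAAA

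In the stretches of Slc25a48 and Slc25a32, TTTTAT began 17 and 16 bases before the hexamer. Its absence from those of Slc25a10 and Slc25a20 was fixed by the way the risers were picked and does not compare risers with fallers. The stretches of the risers Slc25a13, Slc25a16 and Slc25a40 lacked it too. Over the last 120 bases of the longest protein-coding transcript, searched on the transcript strand only for TTTTAT or TTTTAAT, 10 of the 34 tested Slc25 genes (29.4%) held a match, a gene being counted once, beside 21.9% of the 11240 tested genes with an annotated end. A match was held by 4 of the 12 risers, 1 of the 6 fallers and 5 of the 16 not called. Among all genes it was 32.5% of those higher at MII and 12.03% of those lower. The Slc25 numbers are too few to set against these shares. AATAAA was found in 58.8% of the Slc25 ends and 67.0% of all.

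Within each type fewer Slc25 genes passed than over both types. In SN oocytes 6 Slc25 genes were higher at MII (17.6%, beside 25.1% of all genes) and 4 lower (11.8%, beside 31.2% of all genes). In NSN oocytes 10 were higher (29.4%, beside 25.4% of all genes) and 6 lower (17.6%, beside 30.8% of all genes). In both types 9 genes were called with the same sign, among them Slc25a5, Slc25a13, Slc25a16, Slc25a32, Slc25a35, Slc25a39, Slc25a40 and Slc25a44. Slc25a32 lost the call without any 1 of 4 libraries in SN oocytes (adjusted p up to 0.0979) and of 10 libraries in NSN oocytes (up to 0.216). In NSN oocytes and not in SN oocytes, Slc25a14, Slc25a21, Slc25a36 and Slc25a48 passed as higher and Slc25a4, Slc25a10 and Slc25a17 as lower, and Slc25a20 passed as lower in SN and not in NSN oocytes. The calls of Slc25a10 and Slc25a48 were kept without any 1 library. Those of Slc25a4 and Slc25a14 were each lost without any 1 of 2 libraries (adjusted p up to 0.0548 and 0.117), those of Slc25a21, Slc25a36 and Slc25a20 of 4 (up to 0.118, 0.130 and 0.102) and that of Slc25a17 of 8 (up to 0.156). Slc25a17 had opposite signs in the types, with a log2 fold change of -0.88 ± 0.35 in NSN and 0.58 ± 0.33 in SN oocytes. Whether these differed between types is the question of the interaction of type and stage, and it called no Slc25 gene. Scaled by library totals, the split was 4 higher and 5 lower in SN oocytes and 6 higher and 8 lower in NSN oocytes. With limma on log2(FPKM + 1) it was 7 higher and 8 lower in NSN oocytes. No share of all genes is given here for calls in both types, in 1 type alone or under these scalings. Such counts are therefore not read as a trait of the family.

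The comparison of NSN with SN GV oocytes asks whether the transcripts of the family differ between these types before maturation. None of the 31 Slc25 genes tested was called, by edgeR or by DESeq2, where 0% of all 10839 genes were called by edgeR. At an unadjusted p under 0.05 there were 2 Slc25 genes, beside 1.75% of all genes. The first was Slc25a10, the dicarboxylate carrier. It had 1.15, 1.42 and 2.03 CPM in SN GV oocytes and 6.41, 6.48 and 3.92 CPM in NSN GV oocytes, so that all NSN libraries were above all SN libraries. Its log2 fold change (NSN over SN) was 1.88 ± 0.53, 3.68-fold, with an unadjusted p of 0.00624 and an adjusted p of 1. Reads of Gm11788 on the other strand cannot be told apart from its own.

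The second was Slc25a30, a member close to uncoupling proteins, with 5.22, 7.56 and 14.6 CPM in SN and 36.4, 20.4 and 9.98 CPM in NSN GV oocytes, which overlap. Its log2 fold change was 1.33 ± 0.56 (unadjusted p 0.0433). Slc25a35 was next, with 34.5, 42.4 and 42.9 CPM in SN and 54.4, 44.3 and 66.2 CPM in NSN oocytes (0.48 ± 0.23), and then Slc25a11, with 18.9, 16.1 and 14.8 CPM in SN and 19.1, 26.4 and 23.4 CPM in NSN oocytes (0.48 ± 0.25). In both genes all NSN values were above all SN values, and neither reached an unadjusted p of 0.05. With 3 libraries against 3, values can separate without a true difference. The share of all genes that separate in this way is not given here, at GV or at MII. Such separation is therefore not read as a difference between types. Over the 31 genes the median size of the log2 difference without its sign was 0.19, beside 0.20 over all genes. The sign was positive, higher in NSN oocytes, in 23 of 31, beside 51.2% of all genes, and the signed median was 0.15 beside 0.01. Genes measured in the same few oocytes are not independent. The family took 0.176%, 0.164% and 0.130% of the counts in NSN GV replicates 1, 2 and 3. Its share was 0.140% to 0.151% in SN GV libraries, so it was not higher in every NSN oocyte. Slc25a5, the most abundant at GV, differed by 0.01 ± 0.24, and Slc25a17 by -0.05 ± 0.18.

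**Figure D4:**
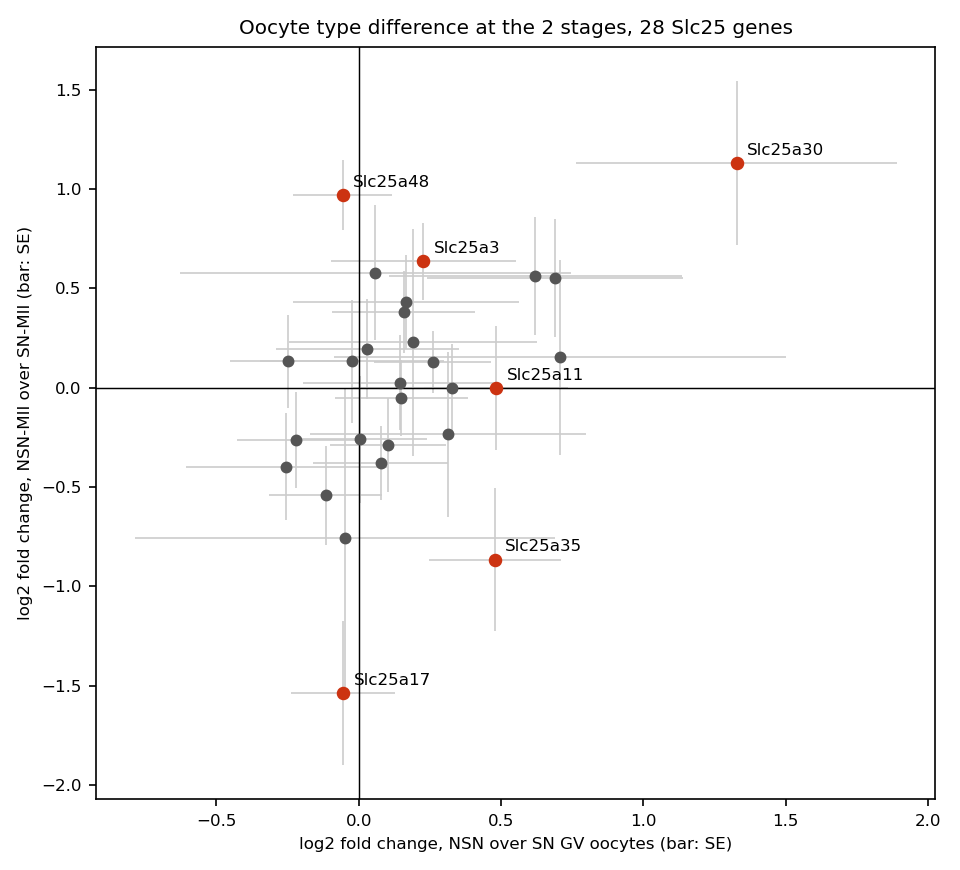
Log2 fold change of NSN over SN GV oocytes (x axis) against that of NSN-MII over SN-MII (y axis) for 28 of the Slc25 genes tested at both stages, with bars for SE and with the genes named in the text in red. Slc25a48 and Slc25a17 lie near 0 at GV and at 0.97 and -1.54 at MII, and Slc25a30 is positive on both axes.

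The same comparison in MII oocytes asks whether eggs grown from NSN and SN oocytes differ. No Slc25 gene of the 31 tested was called by edgeR, where 0.259% of all 10028 genes were. At an unadjusted p under 0.05 there were 5, beside 9.38% of all genes. DESeq2 called Slc25a48 higher and Slc25a17 lower in NSN-MII oocytes, where it called 2.42% of 9144 genes, and these are given in full.

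Slc25a48 (ENSMUSG00000021509.5, chr13:56438355-56474239, plus strand) had 147.1, 112.2, 112.6 and 92.3 CPM in SN-MII oocytes and 223.8, 234.2 and 225.3 CPM in NSN-MII oocytes. All NSN-MII libraries were above all SN-MII libraries and were close to each other. At GV it had 87.4, 95.6 and 76.6 CPM in SN and 73.3, 85.7 and 87.8 CPM in NSN oocytes, which overlap. The log2 fold change at MII (NSN over SN) was 0.97 ± 0.18, 1.96-fold, with an adjusted p of 0.0523, just past the threshold. It was called by DESeq2 (adjusted p 0.000326), in a robust form of the edgeR fit chosen after the data were seen (0.0436), without the filter on low counts (0.0107), with all 13 libraries in 1 fit (0.0232), without SN-MII replicate 1 (0.0334) and without NSN-MII replicate 3 (0.0173). It was not called with limma on log2(FPKM + 1) (0.114) or with library totals (0.106). Over the 7 libraries left out in turn its adjusted p ran from 0.0173 to 0.193. The direction was the same in all of them.

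Slc25a17 (ENSMUSG00000022404.8, chr15:81318911-81360812, minus strand), the peroxisomal cofactor carrier, had 140.2, 184.8, 207.2 and 333.3 CPM in SN-MII oocytes and 45.3, 55.4 and 125.6 CPM in NSN-MII oocytes. No NSN-MII library reached the lowest SN-MII library, but both groups were widely spread. GV libraries lay between 111.0 and 163.1 CPM, with both types intermixed. At MII it was lower in NSN oocytes by 1.54 ± 0.36 on the log2 scale (2.90-fold) with an adjusted p of 0.124 by edgeR and of 0.00237 by DESeq2. It also passed without the filter on low counts (0.0113). Without NSN-MII replicate 3, the oocyte with 125.6 CPM, the log2 fold change was -2.09 with an adjusted p of 0.00629, the lowest of a range that reached 0.397 over the libraries left out. That library also had the fewest genes and the largest share of counts in its top 10 genes.

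**Figure D5:**
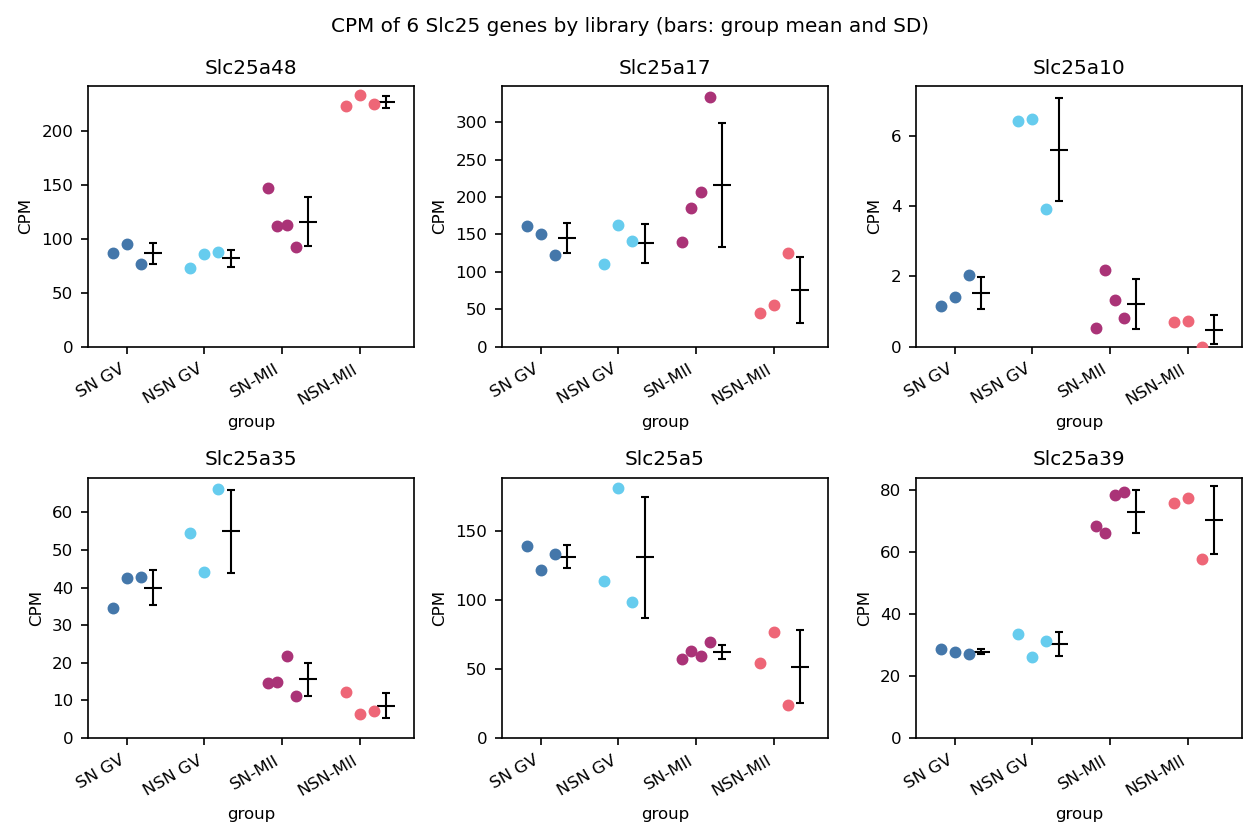
CPM (y axis, from 0) of Slc25a48, Slc25a17, Slc25a10, Slc25a35, Slc25a5 and Slc25a39 in the 4 groups (x axis), each point a single-oocyte library and each bar the group mean with its SD. The 3 NSN-MII points of Slc25a48 (223.8 to 234.2 CPM) stand above all others, and Slc25a39 separates by stage and not by type.

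The other 3 members at an unadjusted p under 0.05 were less clear. Slc25a3 had 68.6, 60.3, 71.5 and 54.1 CPM in SN-MII and 86.9, 120.2 and 89.6 CPM in NSN-MII oocytes, without overlap, a log2 difference of 0.64 ± 0.19 (adjusted p 0.264). Slc25a30 had 17.77, 12.6, 10.6 and 5.86 CPM in SN-MII and 41.2, 17.81 and 17.89 CPM in NSN-MII oocytes, a log2 difference of 1.13 ± 0.41 (adjusted p 0.379). The lowest NSN-MII value was barely above the highest SN-MII value, and NSN-MII replicate 1 stood far above the other eggs. Slc25a35 was 0.86 ± 0.36 lower in NSN-MII oocytes on the log2 scale (adjusted p 0.463), with overlap.

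Whether the difference between NSN and SN oocytes itself changed from GV to MII was tested as the interaction of type and stage. It called 2 of 11375 genes, 0.0176%, and none was an Slc25 gene, by edgeR or by DESeq2. At an unadjusted p under 0.05 there were 4 of the 34 members, beside 5.34% of all genes. Slc25a48 had the smallest p, with an interaction of 1.05 ± 0.28 on the log2 scale (adjusted p 0.385, by DESeq2 0.0547). Slc25a35 (-1.32 ± 0.43), Slc25a17 (-1.46 ± 0.48) and Slc25a10 (-3.10 ± 1.16) were the others, all with a more negative stage difference in NSN oocytes. At GV all NSN values of Slc25a10 were above all SN values, a difference that was not called. At MII it had 0.531, 2.18, 1.31 and 0.818 CPM in SN-MII oocytes and 0.714, 0.742 and 0 CPM in NSN-MII oocytes. Within MII libraries it did not pass the filter on low counts, so the types were not compared there. None of these comparisons shows that a stage difference was particular to a type.

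The machinery that inserts carrier proteins into the membranes was examined with a list of 16 genes. Of the 15 tested between stages, 11 were lower at MII and 1 was higher, beside 36.9% lower and 31.7% higher of all genes, with a median log2 fold change of -2.70 beside -0.10 over all genes. Tomm40, the channel of the outer membrane translocase, went from 44.1 ± 5.53 CPM (SD, n = 6) to 0.973 ± 0.822 CPM (n = 7). Timm9, a chaperone that escorts carrier precursors across the intermembrane space, went from 389 ± 70.5 CPM to 23.3 ± 7.75 CPM (log2 fold change -4.11 ± 0.25). Agk, a lipid kinase that is also part of the inner membrane translocase for carriers, was the riser, with 72.3 ± 14.3 CPM at GV and 153 ± 36.4 CPM at MII. Between NSN and SN oocytes no gene of the list was called, where 0% of all genes were at GV and 0.259% at MII. With library totals the list had 13 lower and 1 higher, and no share of all genes is given for that scaling.

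Other transporters of the mitochondrial membranes, 17 genes of which 16 were tested, had 7 higher and 5 lower at MII, beside 31.7% and 36.9% of all genes. With library totals 4 were higher and 6 lower, and with limma on log2(FPKM + 1) 5 and 6. The shares of all genes under these scalings are not given here. Mcu, the pore of the calcium uniporter, rose by 2.14 ± 0.18 and the pyruvate carrier subunit Mpc1 by 1.07 ± 0.21, whereas its partner Mpc2 fell by 2.35 ± 0.22. Among the porins of the outer membrane, Vdac1 rose by 1.23 ± 0.17 and Vdac2 and Vdac3 fell by 0.92 ± 0.22 and by 2.98 ± 0.22. Of the Slc25 family proteins with other symbols, Ucp1 and Ucp3 had no count, Ucp2 had at most 0.420 CPM, Mtch1 was not called, and the outer membrane insertase Mtch2 fell by 2.89 ± 0.43.

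The 13 members that entered no test had at most 18 counts in any library. Slc25a34 and Slc25a54 had no count in any of the 13 libraries, and Slc25a2, Slc25a18, Slc25a41, Slc25a43 and Slc25a47 had at most 3. The iron carriers Slc25a28 and Slc25a37, known as mitoferrins, had at most 5 counts each. Slc25a29, a carrier of basic amino acids, reached 18 counts in NSN GV replicate 1. The rest were Slc25a24, Slc25a42 and Slc25a45. At these depths a difference between groups was not detectable, which is not to say that it is absent.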

How the data were processed

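The libraries were made from 13 single oocytes by SMART-seq2 (poly(A)-primed, not strand-specific, without molecular identifiers) and grouped from the sample labels. Per the submitters' processing notes and the study's methods, reads were trimmed with Trim Galore 0.4.4, aligned to mm10 with Bowtie2 2.3.5 and quantified with RSEM 1.2.28. The authors deposited RSEM's expected counts, in which a read that fits several genes is divided among them, in 2 tables, 1 per stage, and 15.1% to 20.1% of a library's values were not whole. A further deposited table held FPKM, which are scaled by length and library size. No per-sample column was left unused.

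Expected counts were rounded. Genes were filtered with filterByExpr, scaled by TMM and tested over all genes with edgeR 4.0.16 (R 4.3.3; quasi-likelihood test, Benjamini-Hochberg adjustment, called at an adjusted p under 0.05). NSN and SN oocytes were compared within a stage (3 against 3 at GV, 3 against 4 at MII). MII was compared with GV, overall and within a type, and the interaction tested, in 1 fit of 4 group means over 13 libraries with 9 residual degrees of freedom. SE was taken as the size of the log2 fold change divided by the square root of F. CPM were scaled by TMM over all 13 libraries. DESeq2 1.42.0 and limma 3.58.1 (trend, genes with a mean of at least 1 FPKM) served as alternatives, with library totals, DESeq2's size factors, no filter, a 1.5-fold minimum, a replicate block, a robust fit, and each library left out. Scripts were tested on simulated data. The common biological coefficient of variation was 0.352 at GV, 0.344 at MII and 0.364 over all, so variation between oocytes limits the precision. No pair of libraries was a copy (smallest chi-square per degree of freedom 8.47 over 78 pairs).

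Values were given for members called between types or in the interaction, the 4 smallest p between types at each stage, up to 6 risers and 6 fallers between stages without overlap, the 6 highest mean FPKM, and 7 sets of paralogs. Other members called were named as well, except 1 that is counted but not reported here. The family, its role groups and the gene lists were chosen with earlier results of these data known, although the rule for members reads names only. Gene positions and 3′ ends came from GENCODE M21 on mm10, which held 99.7% of the symbols.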

Additional observations from a re-analysis of the deposited data

Results flagged for a closer look

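In the 4 SN-MII libraries, the only group large enough for the check, Slc25a31 and Slc25a36 had 1 oocyte set apart from the other 3 (Dixon's ratio above its 95% critical value). Slc25a31 had 149.0 CPM in SN-MII replicate 4, and 78.6 to 82.4 CPM in the others. Slc25a36 had 27.1 CPM in SN-MII replicate 1, and 16.5 to 17.1 CPM in the others. The check covered 34 member groups. Chance alone flags about 1 group in 20, and the flags found are near that share. The values came from different oocytes.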

How the results depend on the processing

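Of 599 alternative fits of 31 named gene results, 565 kept direction and side of the threshold. The counts of Slc25 genes called between stages, both directions together, stayed within 1.5 times in every alternative, but with library totals those higher at MII went from 12 to 7 over both types and from 10 to 6 in NSN oocytes. Between types at MII the count was 0 and rose to 2 (1 higher, 1 lower) with DESeq2 and without the filter, and to 1 with all 13 libraries in 1 fit and with the robust fit. Leaving out 1 library gave 0 to 2. In each case the genes were Slc25a48, Slc25a17 or both. Reversals of sign concerned genes not called between stages. Slc25a1 was 0.44 (FPKM + 0.1) and 0.43 (FPKM + 1) higher at MII with limma, and without 1 library it ranged from -0.14 to 0.10. With library totals, Slc25a3 was -0.19, Slc25a31 -0.037 and Slc25a25 -0.15, and Slc25a25 was -0.044 with limma on log2(FPKM + 1). Without 1 library Slc25a3 ranged from -0.018 to 0.22, Slc25a25 from -0.035 to 0.94 and Slc25a33 from -0.67 to 0.28. No named member called in the report reversed. Between stages, Slc25a12 was called without SN GV replicate 2 (adjusted p 0.0444), Slc25a22 (0.0448) and Slc25a25 (0.0469) without NSN GV replicate 1, Slc25a26 without NSN GV replicate 3 (0.0148) and Slc25a17 without NSN-MII replicate 3 (0.0456). The replicate numbers did not pair the libraries (correlations of deviations -0.46 to 0.10 within a stage and -0.037 to 0.20 between stages of a type, with 0.19 and 0.20 for NSN replicates 1 and 3). With the replicate block the counts were 0 at GV, 0 at MII, 18 between stages, 8 in SN, 13 in NSN and 0 in the interaction. Low counts limit Slc25a10 and Slc25a21, and single oocytes limit the comparisons of types.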
